A study of Homo sapiens with 18 samples.

Results

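MBD-seq libraries made with the MethylMiner kit were examined as a map of DNA copy number in 3 human cancer cell lines: HCT15, a colorectal carcinoma line, and DU145 and PC3, both prostate cancer lines. They are 3 of the 18 libraries of a study that compared 5 MBD kits, with 1 library per line and kit and 1 RRBS library per line. In MBD-seq, fragmented DNA is captured with a methyl binding domain (that of MBD2 in this kit) and sequenced, and in RRBS (reduced representation bisulfite sequencing) fragments cut by an enzyme are bisulfite treated and read per CpG. All libraries were made from DNA of untreated cells grown in the medium of the supplier. The labels name ATCC as the source of the 3 lines, whereas the methods of the study give another source for DU145. The study made the MethylMiner libraries to measure DNA-methylation, and copy number was not their aim. A line was grown as a bulk culture, so that fewer copies in all cells and a loss in some of the cells cannot be told apart, and the depth gives relative and not absolute copies.

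Copy number is the number of copies of a stretch of DNA per cell. Where a library samples fragments from the whole genome, the number of fragments from a stretch follows its number of copies, so that long gains and losses appear as steps in depth along a chromosome and a stretch lost from every copy appears as a gap without fragments. Cancer genomes often gain stretches that carry growth-promoting genes and lose stretches that carry tumour suppressors, genes that restrain growth or guard the genome. Very long genes at fragile sites, where chromosomes break easily under replication stress, are often partly deleted in tumours and cell lines.

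For each library, depth times length was summed in bins of 1 Mb on chromosomes 1 to 22 and divided by the total of the library. The log2 ratio of each line to the median of the 3 lines was then taken in 2680 of 2897 bins, those with at least 50% of known bases and a depth of at least 25% of the median bin in the median line. A bin was called gained at a log2 ratio of 0.32 or more and lost at the same size below 0. As the median of 3 values is 1 of them, the ratio is 0 in the middle line, and a change that DU145 and PC3 share appears as the opposite change in HCT15. Therefore, the level of a bin against the median bin of its own library, after correction for GC content, is given beside the ratio and is called the own level. With 1 library per line no test between lines was possible, and intervals and standard errors cover counting error only. The standard error of a ratio was taken from the fragment starts of the line and the middle of the 3 raw counts. That count need not belong to the middle line, so that the standard error can be too small.

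The stretches without PC3 fragments hold coding exons of well known genes. The sequences that follow are reference sequence (GRCh37, the build of the files) of exons that lie wholly in stretches without a single PC3 fragment, and they are shown because the deletions of PC3 cover them. For each gene, the coding exon of at most 300 bases with the most summed depth in HCT15 and DU145 was taken. The coding strand is given 5′ to 3′, and capitals mark CpGs, the sites an MBD can bind when methylated.
CTNNA1 exon 6, chr5:138160219-138160488, plus strand: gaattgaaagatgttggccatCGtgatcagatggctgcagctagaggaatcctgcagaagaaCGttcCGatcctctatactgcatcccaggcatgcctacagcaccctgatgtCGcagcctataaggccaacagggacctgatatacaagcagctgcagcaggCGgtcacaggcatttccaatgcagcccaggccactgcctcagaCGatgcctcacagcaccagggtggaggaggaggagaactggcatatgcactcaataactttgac
MAT1A exon 6, chr10:82036132-82036350, minus strand: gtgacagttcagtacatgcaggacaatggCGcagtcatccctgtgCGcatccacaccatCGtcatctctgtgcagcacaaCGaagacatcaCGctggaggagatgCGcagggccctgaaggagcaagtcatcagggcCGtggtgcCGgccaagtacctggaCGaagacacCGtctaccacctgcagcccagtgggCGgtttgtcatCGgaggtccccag
STAT3 exon 21, chr17:40474300-40474512, minus strand: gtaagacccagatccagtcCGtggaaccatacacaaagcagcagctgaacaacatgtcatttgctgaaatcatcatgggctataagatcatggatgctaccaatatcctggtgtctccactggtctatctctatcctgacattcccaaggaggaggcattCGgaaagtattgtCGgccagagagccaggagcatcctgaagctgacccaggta
STAT5A exon 16, chr17:40460196-40460351, plus strand: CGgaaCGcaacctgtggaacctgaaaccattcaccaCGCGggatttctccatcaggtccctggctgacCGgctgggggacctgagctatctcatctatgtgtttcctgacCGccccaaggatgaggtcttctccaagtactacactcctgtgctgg
The exons held 6 CpGs in CTNNA1, 12 in MAT1A, 3 in STAT3 and 6 in STAT5A. The summed depth over the exon was 660 in HCT15 and 155 in DU145 for CTNNA1, 477 and 39 for MAT1A, 543 and 144 for STAT3, and 356 and 208 for STAT5A. It was 0 in PC3 for all 4 exons. A single exon is too short for its own count to separate a deletion from shallow sampling, and the deletions described further on rest on stretches of 50 kb and more.

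The MethylMiner library of HCT15 held 7344098 fragments, that of DU145 2955893 and that of PC3 2092970, and for each line this was the deepest of the 5 kits. The median bin had 2464, 936 and 613 fragment starts, for a median counting error of 0.029, 0.047 and 0.058 on the log2 scale. The own levels of neighbouring bins differed by more than that, with SDs of 0.12 to 0.13 in the 3 libraries. The depth was not even across bins. It correlated with the GC content of the bins (r across bins of 0.92 for HCT15, 0.83 for DU145 and 0.74 for PC3), and the bins in the highest quintile of CpG density had 3.70, 3.27 and 2.98 times the depth of the lowest quintile. For the MethylCap kit the same ratios were 21.2, 11.3 and 10.9. MethylMiner depth was thus closer to even coverage than MethylCap depth, without being even. Whether the remaining slope came from capture was not tested. Differences between lines in mean RRBS methylation of a bin were weakly correlated with the MethylMiner ratio, with r of 0.13 for DU145 against HCT15, 0.04 for PC3 against HCT15 and 0.07 for PC3 against DU145 over 2122 bins. The corresponding r for MethylCap was 0.21, 0.37 and 0.52. These correlations are across bins of the same libraries and are given as a description.

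The 3 lines differed in how far their depth departed from a flat profile. HCT15 was the flattest, as 94% of its bins lay within the call threshold of its own median bin after the GC correction, against 56.8% in DU145 and 41.8% in PC3. The middle 90% of the own levels ran from -0.32 to 0.22 in HCT15, from -0.65 to 0.54 in DU145 and from -0.72 to 0.97 in PC3. Segmentation of the 3 profiles together gave 209 segments of at least 3 bins. Of the 187 edges between neighbouring segments, the own level stepped by the call threshold or more at 16 in HCT15 (8.6%), at 48 in DU145 (25.7%) and at 77 in PC3 (41.2%). The PC3 steps were most numerous on chromosomes 5 (14), 10 (12) and 1 (11), and those of DU145 on chromosome 4 (7). PC3 had 121 Mb in 15 segments at or above a doubling of its own median bin, DU145 had 19 Mb in 4 segments and HCT15 had none.

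**Figure D1:**
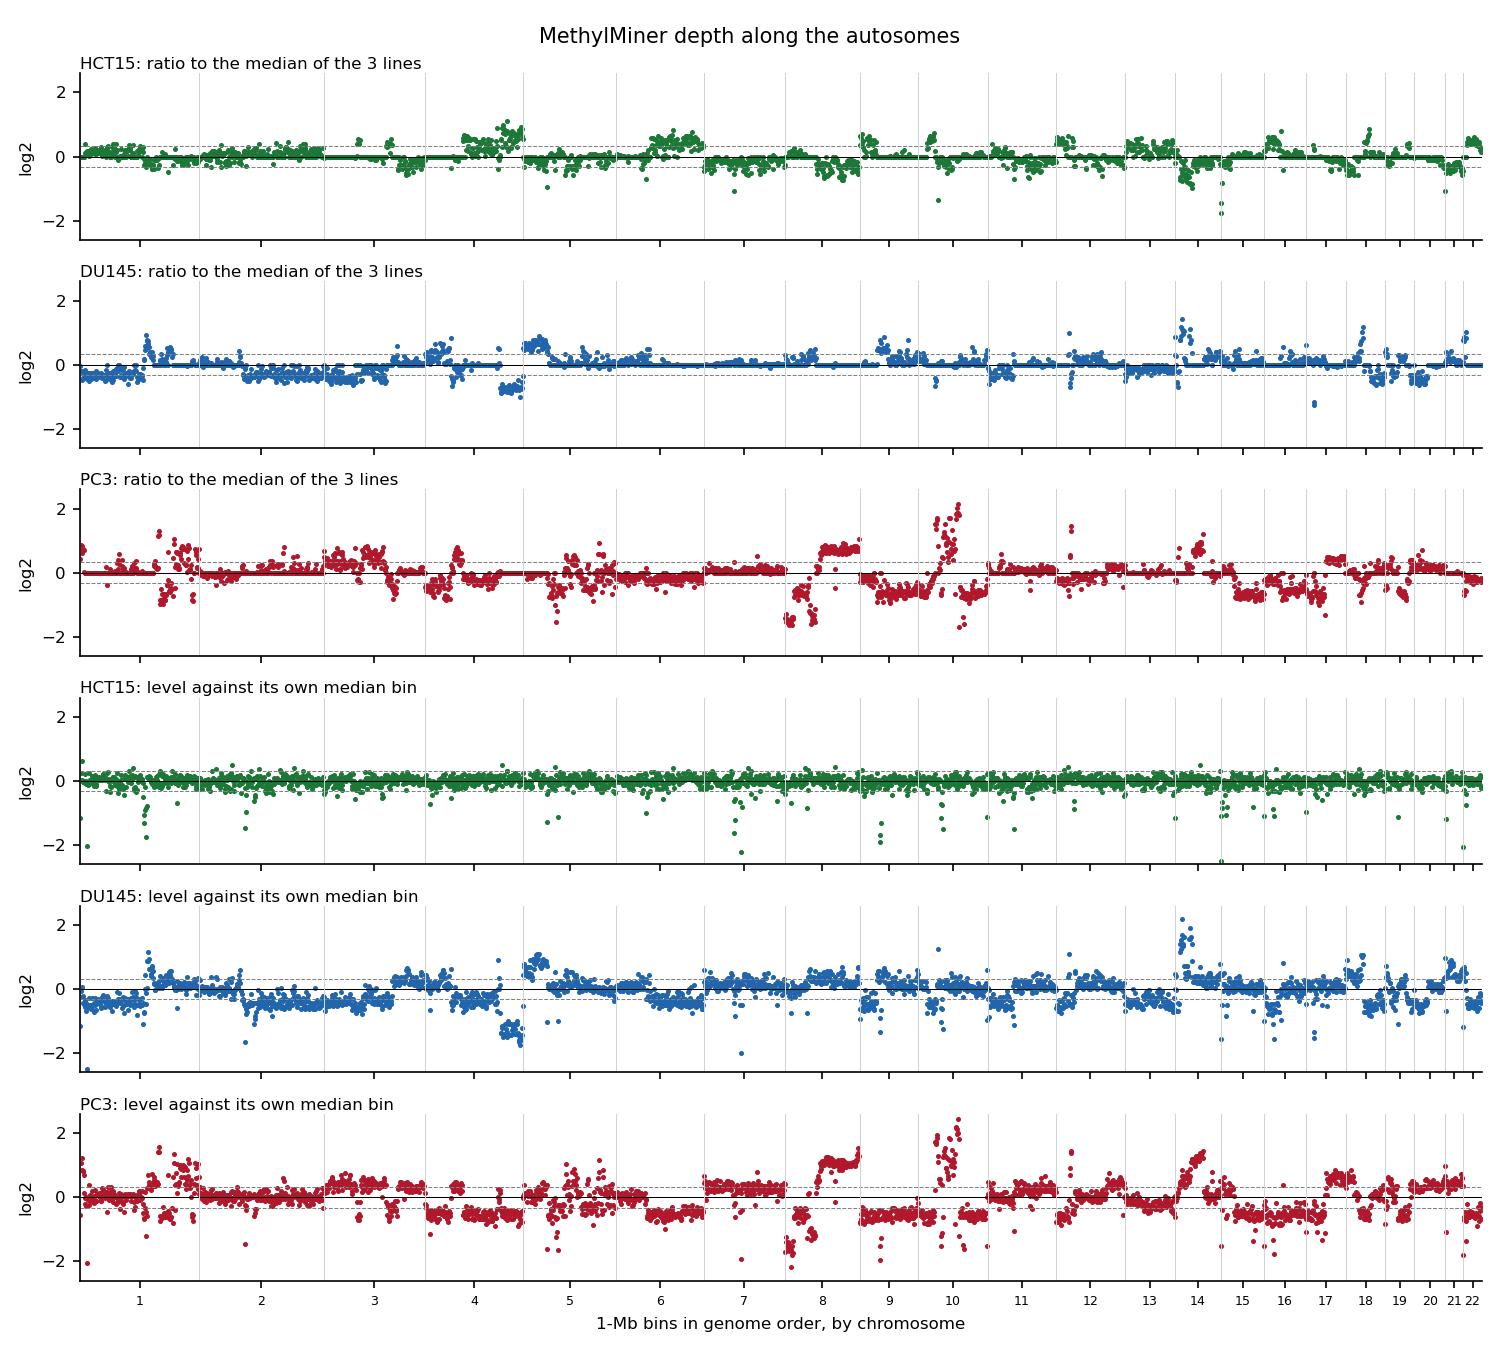
Log2 MethylMiner depth of 2680 bins of 1 Mb in genome order, as the ratio to the median of the 3 lines (upper 3 panels) and as the level against the median bin of the same library after GC correction (lower 3 panels). Each point is a bin, dashed lines mark the call threshold, and 1 HCT15 bin beyond 2.5 is drawn at the limit of the axis. The own level of HCT15 stays within the dashed lines in 94% of bins, whereas DU145 and PC3 show long steps.

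Against the median of the 3 lines, HCT15 had 309 gained bins (11.5%) and 207 lost bins (7.72%), DU145 had 205 gained (7.65%) and 339 lost (12.6%), and PC3 had 332 gained (12.4%) and 541 lost (20.2%). These shares moved with the scaling. When each library was scaled by its median bin in place of its total, 31.8% of the called HCT15 bins were gains in place of 59.9%, and 55.4% of the called PC3 bins in place of 38%. The median bin of HCT15 lay 0.09 above and that of PC3 0.10 below the median line on the log2 scale. By own level, the calls of HCT15 shrank to 26 gained (0.97%) and 135 lost bins (5.04%), whereas DU145 had 366 gained (13.7%) and 793 lost (29.6%) and PC3 652 gained (24.3%) and 909 lost (33.9%). Bins beside centromeres could be low in all lines, such as those of chr9:44000001-69000000 with own levels of the segment of -1.68 in HCT15, -0.89 in DU145 and -1.53 in PC3.

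Whole chromosome arms were called in each line. In DU145, arm 5p, which carries TERT and RICTOR, had a ratio of 0.62 and an own level of 0.76 in 46 bins, with 66949 fragment starts against 99631 in the deeper HCT15 library. It was the single gained arm of DU145 among 39 (2.56%). Arms 1p, 2q, 3p, 11p and 20p were lost in DU145 (12.8%), with ratios from -0.44 for 1p to -0.35 for 11p. In PC3, 8q had a ratio of 0.50 and an own level of 1.01, and was the single gained arm (2.56%). Arm 8p of the same chromosome had the lowest ratio of any arm, -0.93, with an own level of -0.65. Arms 4p, 8p, 9p, 9q, 15q, 16q, 17p and 22q were lost in PC3 (20.5%).

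HCT15 had 4 gained arms (10.3%), namely 4q, 6q, 12p and 16p, and 3 lost arms (7.69%), namely 14q, 18p and 21q. None of these arms departed from the rest of the HCT15 library, as the own levels of all 39 HCT15 arms lay between -0.10 and 0.05. On 4q, for example, the own level was 0.04 in HCT15, -0.43 in DU145 and -0.49 in PC3. On 21q it was 0.05, 0.45 and 0.45. Judged by own level, DU145 had 4 gained arms (5p, 14q, 18p and 21q) and 13 lost arms, and PC3 had 9 gained and 15 lost arms. Arms 4q, 6q, 9p, 12p, 16p and 22q were low in both prostate lines, and 14q, 18p and 21q were high in both.

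**Figure D2:**
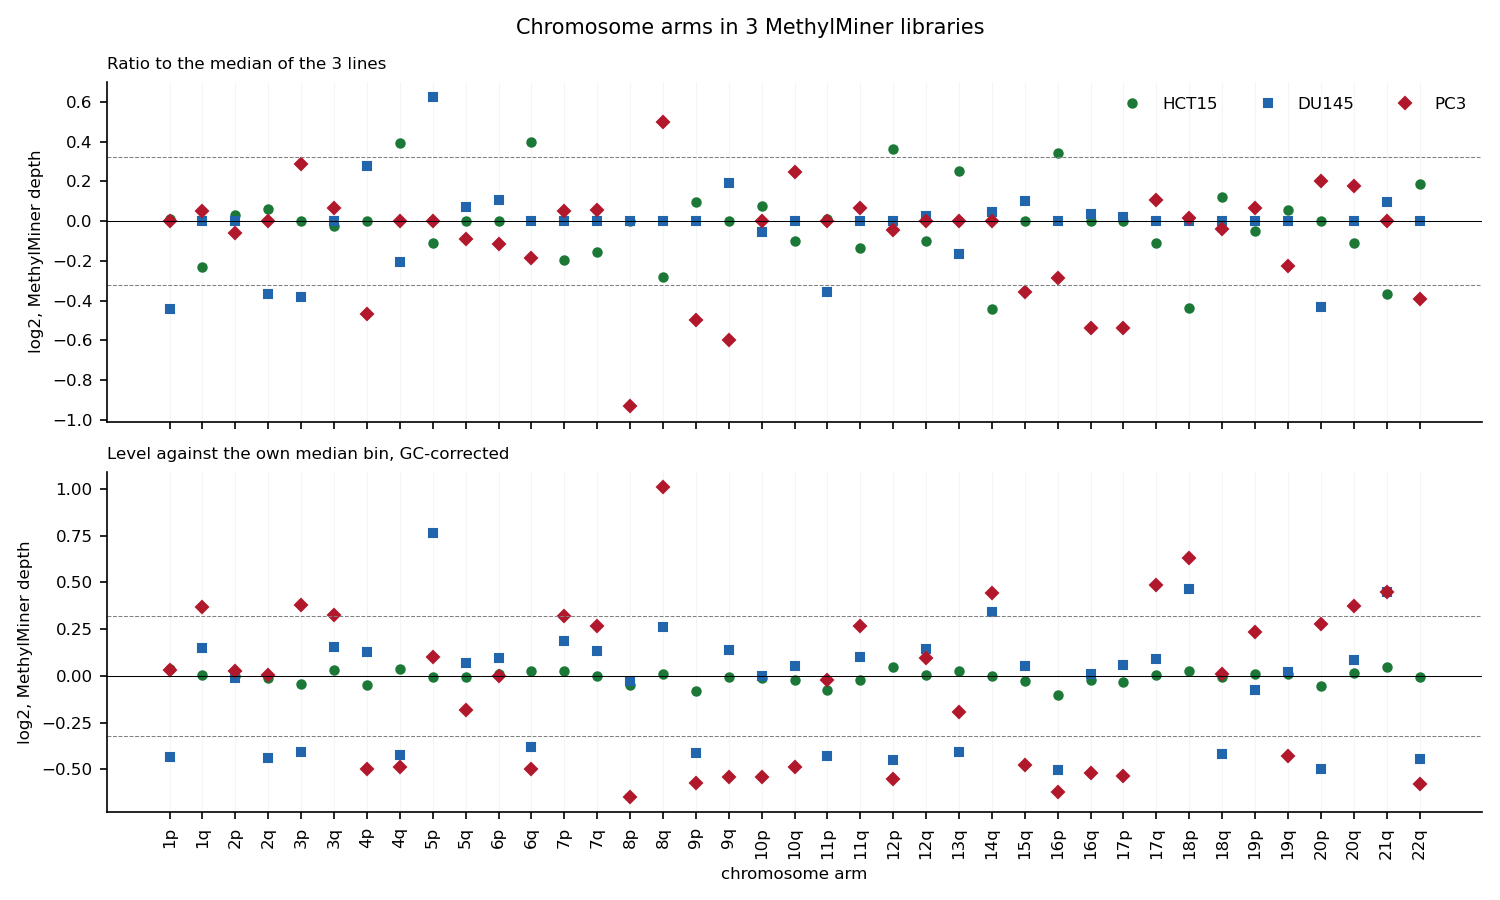
Log2 MethylMiner depth of 39 chromosome arms in HCT15 (circles), DU145 (squares) and PC3 (diamonds), as the ratio to the median of the 3 lines (top) and as the median own level of the bins of the arm (bottom), with 1 library per line and dashed lines at the call threshold. The HCT15 points of the lower panel all lie between -0.10 and 0.05, and the PC3 points of 8q (1.01) and 8p (-0.65) are its highest and lowest.

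The steepest gains of PC3 lay on chromosome 10. The highest segment of all was chr10:75000001-82000000, with a ratio of 1.93 (counting SE 0.01) and an own level of 2.14 in PC3, against own levels of -0.04 in HCT15 and 0.03 in DU145. The PC3 library had 27464 fragment starts there, more than the 24693 of the much deeper HCT15 library and the 10340 of DU145. The standard error used the HCT15 count, although DU145 was the middle line, and is thus too small. LRMDA, a gene of melanocyte differentiation, and KCNMA1, the pore-forming subunit of a large-conductance potassium channel, were the longest of its 46 protein-coding genes. The segment chr10:62000001-65000000 with ANK3, which encodes the membrane scaffold ankyrin-G, had a ratio of 1.51 and an own level of 1.80. The segment chr10:33000001-36000000 with PARD3, a cell polarity gene, had a ratio of 1.46 and an own level of 1.73, and continued into chr10:36000001-39000000 at 1.41 and 1.84. Most segments between these blocks were also high in PC3, with own levels of 1.30 at chr10:52000001-59000000 and 1.09 at chr10:65000001-72000000, apart from chr10:46000001-49000000, which was low in all 3 lines (-0.75 in HCT15, -0.64 in DU145 and -1.21 in PC3). Outside them the chromosome was low in PC3, with own levels of -0.53 at chr10:1-17000000, -0.47 at chr10:30000001-33000000, -0.54 at chr10:82000001-89000000 and -0.60 at chr10:111000001-132000000. The step at chr10:82000001 took PC3 from the highest segment in the genome to a lost one. Of the 133 bins of chromosome 10, PC3 had 38 gained and 77 lost.

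The lowest PC3 segment was the end of 8p, chr8:1-17000000, with a ratio of -1.53 (counting SE 0.03) and an own level of -1.54. PC3 had 3927 fragment starts there, HCT15 39639 and DU145 16453. CSMD1 and SGCZ were its longest genes. The rest of 8p, chr8:17000001-44000000, which carries the growth factor receptor gene FGFR1, was lost to a smaller extent (-0.68, own level -0.56). A second deep loss lay on 8q, at chr8:50000001-62000000 (ratio -1.34, own level -1.12, 2943 fragment starts against 26375 and 12775). From chr8:70000001 onwards the arm was gained, apart from chr8:98000001-101000000 at 0.17, and chr8:117000001-146000000 with MYC and PTK2 had a ratio of 0.77 and an own level of 1.05. Of the 142 bins of the chromosome, PC3 had 74 gained and 58 lost.

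Further blocks at or above a doubling of the own median bin in PC3 included chr1:171000001-174000000 (own level 1.42), chr1:199000001-202000000 (1.06), chr12:26000001-30000000 (1.14) and chr14:53000001-74000000 (1.19, 21 Mb). The last holds RAD51B, which acts in homologous recombination. HCT15 had own levels of -0.02, 0.08, 0.04 and 0.05 in these 4 segments. On chromosome 17, PC3 stepped from an own level of -0.58 at chr17:25000001-41000000, which carries NF1 and ERBB2, to 0.60 at chr17:41000001-78000000.

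In DU145 the highest segments lay on 14q and 18q. The segment chr14:28000001-37000000, in which NPAS3 and PRKD1 are the longest genes, had a ratio of 1.07 (counting SE 0.01) and an own level of 1.42. It held 21292 fragment starts in DU145, more than the 18425 of HCT15 although the HCT15 library was the deeper one, and 7118 in PC3. Here too the standard error used the HCT15 count, although PC3 was the middle line, and is too small. The short segment chr14:47000001-50000000 reached 0.87, with an own level of 1.57. At chr14:50000001-53000000 the own level was 1.39 in DU145 and 1.19 in PC3, so that the ratio of DU145 was no more than 0.37 and that of HCT15 was -0.81, whereas HCT15 had an own level of 0.03. The segment chr18:33000001-37000000 with FHOD3 had a ratio of 0.95 and an own level of 1.03 in DU145, and own levels of -0.08 in HCT15 and -0.37 in PC3.

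The lowest DU145 segments lay at the end of 4q and on 17p. In chr4:147000001-191000000, the DU145 own level ranged from -1.58 to -1.23 in 5 segments, while that of PC3 ranged from -0.64 to -0.38 and that of HCT15 from 0.01 to 0.14. The segment chr4:147000001-151000000 had the lowest ratio, -0.84 (counting SE 0.05), with 1317 fragment starts in DU145 and 7214 in HCT15. The segments with FBXW7, which marks growth proteins for degradation, and with FAT1, an atypical cadherin, had ratios of -0.74 and -0.79. The segment chr17:15000001-18000000 with NCOR1, a co-repressor of nuclear receptors, had a ratio of -0.83, an own level of -1.35 and 2413 fragment starts in DU145 against 12815 in HCT15. It lay between segments with DU145 own levels of 0.10 and -0.11.

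Of the 3 highest and 3 lowest segments of HCT15, 1 had an own level past the call threshold. It was chr15:20000001-23000000, beside the centromere, with a ratio of -1.19 (counting SE 0.03) and an own level of -1.10, while DU145 and PC3 had own levels of 0.44 and 0.33. HCT15 had 3691 fragment starts there, fewer than the 3859 of the shallower DU145 library. The other 5, at the end of 4q (ratios 0.66 to 0.86) and at chr14:47000001-53000000 (-0.85 and -0.81), had HCT15 own levels between 0.01 and 0.14.

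Windows of 50 kb without most of their fragments were found in each line. A window was called deleted where the depth was at most 10% of the median of the 3 lines and at least 20 fragment starts were expected. There were 7 such windows of 53230 in HCT15 (0.0132%), 4 of 49494 in DU145 (0.00808%) and 34 of 42117 in PC3 (0.0807%). They formed 5, 2 and 9 runs. The highest windows inside the threshold had 9.24%, 9.74% and 8.12% of the median, and the lowest outside had 11.45%, 13.23% and 12.54%. Apart from MACROD2 in HCT15, the protein-coding genes in the runs were all in runs of PC3.

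A pair of runs lay on chromosome 10 of PC3, at the edge of the highest gained segment. The run chr10:82000001-82300000 had 3 fragment starts in PC3 where 357.8 were expected from the median of the 3 lines (0.84%, exact Poisson 95% interval 0.17 to 2.45%), against 1277 in HCT15 and 535 in DU145. MAT1A, which makes S-adenosylmethionine in liver, DYDC1, DYDC2 and PRXL2A had no PC3 fragment, TSPAN14 had 1, and SH2D4B, which runs past the stretch, had 54. All 9 coding exons of MAT1A lay in the empty stretch of 222.8 kb. The run chr10:81300001-81450000, inside the gained segment, had 3 fragment starts where 114.1 were expected (2.63%, interval 0.54 to 7.68%). It holds SFTPA1 (0 fragment starts in PC3 and 23 in HCT15) and SFTPA2 (0 and 18), which encode lung surfactant protein A and are near-identical copies of each other, so that fragments that map to both were left out by unique mapping in all lines.

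Another run on chromosome 10 of PC3, chr10:90350001-90450000, had 0 fragment starts in PC3 where 45.5 were expected, against 160 in HCT15 and 67 in DU145. Taking the limit of 3 fragments that a count of 0 allows in a library, it was at least 15.2-fold lower than the number expected. That number does not take into account that PC3 was lost on this part of the chromosome, with a ratio of -0.73 at chr10:92000001-107000000. It holds the lipase genes LIPJ and LIPF, LIPF being that of the stomach, which had none in PC3, and 21 and 12 in HCT15. The stretch without PC3 fragments around it, chr10:90215335-90503498, was 288.2 kb long.

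On chromosome 17, the run chr17:40250001-40650000 held 11 fragment starts in PC3 where 538.9 were expected (2.04%, interval 1.02 to 3.65%), 1951 in HCT15 and 867 in DU145. It covers STAT3, STAT5A and STAT5B, transcription factors that carry signals from cytokine receptors to the nucleus. STAT3 had 0 fragment starts in PC3, 287 in HCT15 and 129 in DU145, and its 23 coding exons all lay in a stretch of 83.7 kb without a fragment. STAT5A had 0, 134 and 69, and STAT5B had 2, 389 and 161. KAT2A, a histone acetyltransferase, had 1, 49 and 20, and CAVIN1, which coats caveolae, had 1, 102 and 50. RAB5C, KCNH4, GHDC and DHX58 had 0 or 1 in PC3 and between 46 and 197 in HCT15, and ATP6V0A1, at the edge, had 6.

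On chromosome 5, the run chr5:138100001-138300000 had 6 fragment starts in PC3 where 173.7 were expected (3.45%, interval 1.27 to 7.52%), 660 in HCT15 and 254 in DU145. CTNNA1 encodes alpha-catenin, which links cadherins to actin. Its start lies outside the run and it kept 113 fragment starts in PC3, but its 17 coding exons all lay in stretches without a fragment. LRRTM2, a synaptic gene within an intron of CTNNA1, had 0 in PC3. SIL1, which reaches into the run from the other side, had 235. The remaining PC3 runs were single windows. The window at chr19:250001-300000 with PLPP2, a lipid phosphatase gene, had 3 fragment starts where 59.7 were expected, and PLPP2 itself had 0 in PC3, 49 in HCT15 and 27 in DU145. The empty stretches there included 160 kb on its telomeric side. The windows at chr1:198150001-198200000 in NEK7 and at chr8:2300001-2350000, without a protein-coding gene, had 2 fragment starts each where 27.7 and 25.9 were expected, with upper limits of 26.1% and 27.9%. They lie in segments with PC3 ratios of -0.51 and -1.53, which the expected numbers do not take into account. The same limit holds for other PC3 runs in lost segments, such as those with CTNNA1 (segment ratio -0.57) and MAT1A (-0.73).

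In HCT15, both runs away from centromeres lay in MACROD2, a gene of 2057.8 kb at a fragile site. The runs chr20:14700001-14800000 and chr20:14950001-15050000 had 0 fragment starts, where 65.4 and 126.8 were expected, against 28 and 49 in DU145 and 50 and 87 in PC3. Taking the limit of 3 fragments that a count of 0 allows in a library, they were at least 21.8-fold and 42.3-fold lower. The stretches without fragments were 107.1 kb and 142.7 kb long, 5.2% and 6.9% of the gene, and the gene as a whole kept 2985 fragment starts. The other HCT15 runs, on chromosomes 10, 15 and 21, lay 0.31 to 1.39 Mb from a centromere gap of the assembly and held no protein-coding gene. In DU145, the run chr6:148150001-148300000 had 1 fragment start where 76.1 were expected (1.31%, interval 0.03 to 7.32%), 311 in HCT15 and 54 in PC3. The window chr4:149450001-149500000, in a segment with a DU145 ratio of -0.84, had 3 where 28.9 were expected (10.4% by starts, interval 2.14 to 30.3%). Neither holds a protein-coding gene.

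The same runs were counted in the libraries of the other assays. Here the number expected was taken from the other 2 lines together, and not from the median of the 3 lines as for MethylMiner. RRBS reads were summed over CpGs, so that a read over several CpGs counts more than once. In the 4 other kits together, the PC3 run with STAT3 had 27 fragment starts where 771.3 were expected (3.5%). The RRBS library had a sum of 1915 reads there, where 36055.4 were expected (5.3%). For the run with MAT1A the shares were 3.5% and 7.0%, for the window with PLPP2 1.2% and 1.6%, for the run with LIPJ and LIPF 12.5% and 30.6%, and for the run with CTNNA1 4.4% and 36.4%. The HCT15 runs in MACROD2 had 3.7% and 5.1% of the starts in the other kits and 9.6% and 7.4% of the RRBS reads. Those near centromeres, on chromosomes 10, 15 and 21, had 9.9%, 12.9% and 10.2% of the starts and 1.0%, 29.3% and 3.4% of the reads. The DU145 run on chromosome 6 had 0 starts in the other kits where 17.2 were expected, and 26.5% of the RRBS reads. The RRBS share of the run with SFTPA1 and SFTPA2 was 54.6%, although the other kits had 0 starts where 62.1 were expected. Conversely, the single windows in NEK7 (55.7% and 57.7%) and on chromosome 4 of DU145 (125.8% and 112.8%) were not low in the other libraries to the same degree. The chromosome 4 share of the kits rests on 2 starts where 1.6 were expected.

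A list of 67 cancer genes was read from the 1-Mb bins that hold their midpoints, of which 66 had a value (TERC had none). Among 29 growth-promoting genes, 4 were gained and 5 lost in PC3, 3 gained and 1 lost in DU145, and 2 gained and 2 lost in HCT15. Over all 19081 protein-coding genes, 10.9% were gained and 22.8% lost in PC3, 5.86% and 15.3% in DU145, and 11.4% and 3.75% in HCT15. The median ratio of the list was 0 in PC3, 0 in DU145 and -0.0044 in HCT15, beside 0 over all genes in each line. Its median own level was 0.15 in DU145 and 0.21 in PC3, beside 0.02 over all genes. By own level, 9 of the 29 genes were gained and 5 lost in PC3, beside 26.2% and 31.4% of all genes. In DU145, 5 were gained and 3 lost, beside 12.2% and 29.6%. PTK2, the focal adhesion kinase, had the highest value in PC3, with a ratio of 0.76 and an own level of 1.31. The transcription factor MYC had 1523 fragment starts in PC3, 1315 in DU145 and 3036 in HCT15, a ratio of 0.73 (counting SE 0.05) and own levels of 1.04, 0.19 and 0.07. NCOA2, a co-activator of nuclear receptors on the same arm, had a ratio of 0.61 and an own level of 1.05. MDM4 on 1q had a ratio of 0.65 and an own level of 0.77.

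The 5 lost growth-promoting genes of PC3 were FGFR1 (-0.69), IGF1R (-0.63), ERBB2 (-0.76), CCNE1 (-0.62) and AKT2 (-0.71), all receptors or drivers of the cell cycle and survival. Their own levels were between -0.64 and -0.33. In DU145, MCL1, an inhibitor of apoptosis, had a ratio of 0.74 (counting SE 0.04) with 2627 fragment starts against 3833 in HCT15 and 1109 in PC3, and own levels of 0.89, 0.13 and 0.29. This standard error is too small, as PC3, with the lowest count, was the middle line of the MCL1 bin. RICTOR, a subunit of mTOR complex 2, had 0.56 and TERT, the catalytic subunit of telomerase, 0.47, with DU145 own levels of 0.86 and 0.79. PDGFRA, a growth factor receptor, was lost (-0.44, own level -0.50). The losses of TERT (-0.34) and RICTOR (-0.42) and the gains of CDK8 (0.37) and FLT3 (0.43) in HCT15 did not persist on the own level, which was between 0.02 and 0.12 for the 4 genes. The ratios of EGFR, MET, CDK4, MDM2 and CCND1 passed the threshold in no line and lay between -0.23 and 0.12, while the own level of EGFR in PC3 was 0.34.

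Among 32 tumour suppressors, 9 were lost and 4 gained in PC3, 5 lost and 1 gained in DU145, and 0 lost and 10 gained in HCT15. The medians were -0.10, 0.00 and 0.08. On the own level, 17 were lost in PC3 and 15 in DU145, beside 31.4% and 29.6% of all protein-coding genes, and 0 in HCT15, beside 4.02%. Their median own levels were -0.42 in PC3, -0.26 in DU145 and 0.04 in HCT15, beside 0.02, 0.02 and 0.03 over all genes. CTNNA1 had the lowest ratio in PC3 (-0.86, counting SE 0.07), with 577 fragment starts against 3862 in HCT15 and 1495 in DU145. MAP2K4 (-0.82), NF1 (-0.78), PTCH1 (-0.73), TSC1 (-0.66), CDH1 (-0.64), MAP3K1 (-0.63) and ZFHX3 (-0.55) were lost in PC3 as well, and STK11 (-0.37) was, although its own level was -0.12. TP73 on 1p, VHL and BAP1 on 3p and SMARCA4 on 19p were gained in PC3, with ratios of 0.84, 0.33, 0.40 and 0.49. VHL fell short of the threshold in a window of 500 kb around the midpoint of the gene (0.31), and STK11 with scaling by the median bin (-0.18).

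In DU145, FBXW7 had a ratio of -0.78 (counting SE 0.10) with 375 fragment starts against 2659 in HCT15 and 459 in PC3, and FAT1 had -0.70 with 385, 2936 and 444. Their own levels, -1.44 and -1.58, were the lowest of the list in DU145. VHL and BAP1 on 3p and ARID1A on 1p were lost with ratios of -0.45, -0.41 and -0.37, and STK11 was gained (0.50, own level 0.71). The other assays did not show the STK11 gain. The DU145 ratio of its bin was 0 by RRBS and by MethylCap, with HCT15 at 0.07 in each. The ratio of ARID1A was -0.25 in the 500-kb window and that of BAP1 -0.31 with scaling by the median bin, both short of the threshold. The 10 gained suppressors of HCT15 were FBXW7, FAT1, MTAP, CDKN2A, CDKN1B, BRCA2, SMAD2, SMAD4, CHEK2 and NF2, and none was gained on the own level. SMAD4, which carries signals of TGF-beta, is an example. Its ratio was 0.87 in HCT15, 0 in DU145 and -0.07 in PC3, but its own levels were 0.09, -0.80 and -0.70. CDKN2A, the inhibitor of CDK4 and CDK6, lay in no deleted window, with 2096, 610 and 375 fragment starts in its bin in HCT15, DU145 and PC3 and own levels of 0.16, -0.38 and -0.44. RB1 had 2412, 666 and 551 fragment starts and own levels of 0.09, -0.45 and -0.09.

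Among the 5 genes at fragile sites, 3 were gained and 1 lost in PC3, and 0 gained and 1 lost in DU145 and in HCT15. FHIT (0.78), LRP1B (0.38) and MACROD2 (0.35) were gained and WWOX (-0.60) was lost in PC3, MACROD2 was lost in DU145 (-0.43), and IMMP2L was lost in HCT15 (-0.55). FHIT was low by own level in HCT15 (-0.56) and in DU145 (-0.56), and 0.31 in PC3, with 1280, 534 and 641 fragment starts. The calls of LRP1B and IMMP2L rested on the bin, and the ratios of MACROD2 moved with the window. In the 500-kb window the ratio of MACROD2 was 0 in DU145 and 1.30 in PC3. That window overlaps the HCT15 deletions of the gene, so that HCT15 was lowest and DU145 became the middle line. Its ratio of 0 therefore cannot show whether the DU145 loss persisted, and the DU145 own level of the bin was -0.69. For LRP1B in PC3 the window gave a ratio of 0.12 and for IMMP2L in HCT15 -0.15, both short of the threshold. After GC correction LRP1B in PC3 (0.14) and IMMP2L in HCT15 (-0.31) were also short of it, and the own level of LRP1B in PC3 (-0.08) had the opposite sign to the ratio. The bin read for MACROD2 begins at 15 Mb and holds a part of its second HCT15 deletion, and its HCT15 own level was -0.23.

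**Figure D3:**
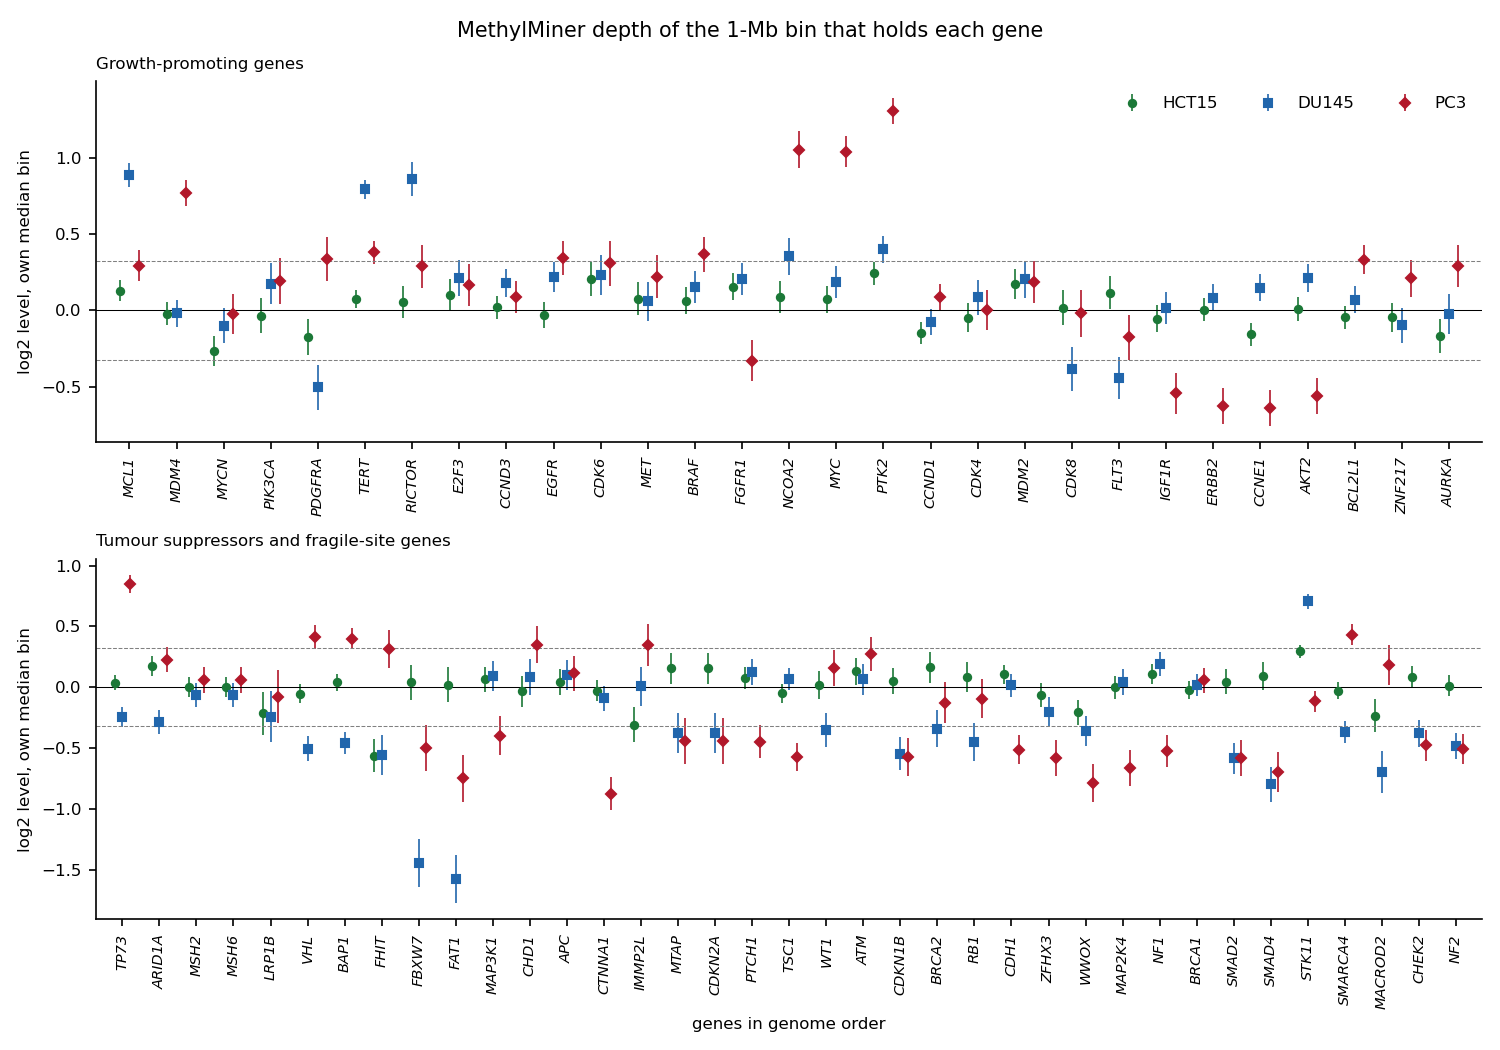
Own log2 level of the 1-Mb bin of 29 growth-promoting genes (top) and of 32 tumour suppressors and 5 fragile-site genes (bottom) in HCT15 (circles), DU145 (squares) and PC3 (diamonds). Bars are 95% counting intervals of the ratio of 1 library to the others and dashed lines mark the call threshold. FAT1 and FBXW7 in DU145 (-1.58 and -1.44) lie lowest, and PTK2 (1.31) in PC3 lies highest.

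RRBS coverage, which counts DNA cut by an enzyme and not captured by an MBD, gave a second reading of the same lines. For the correlations, the log2 values of each assay were centred in each bin on the mean of the 3 lines, in place of the median. Across 2610 bins, centred MethylMiner depth correlated with centred RRBS coverage of the same line at r = 0.82 for HCT15, 0.88 for DU145 and 0.95 for PC3. With the RRBS coverage of the other lines r was -0.65 to -0.10. After GC correction of both assays the values were 0.91, 0.92 and 0.95. The bins share libraries and the centred values of 3 lines depend on each other, so that these are descriptions. The profile of each MethylMiner library thus followed the line it is labelled with. On the own level, which keeps the differences between bins that the centring removes, r was lower, 0.47, 0.50 and 0.67, and between 0.00 and 0.35 with the other lines. Centred MethylCap depth followed centred MethylMiner depth less closely, with r of 0.76, 0.72 and 0.71. MethylCap called 6.57% of bins gained and 21.1% lost in HCT15, 19.3% and 7.65% in DU145, and 18.2% and 24.8% in PC3, or 8.54% and 10.1%, 14.5% and 11.5%, and 18.4% and 24.9% after GC correction.

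The called segments numbered 32 gained (15.3%) and 40 lost (19.1%) in PC3, 25 (12%) and 26 (12.4%) in DU145, and 25 (12%) and 19 (9.09%) in HCT15. Of those with RRBS values, 32 of 32 gained and 35 of 39 lost in PC3 had the same sign by RRBS, 21 of 24 and 24 of 26 in DU145, and 21 of 24 and 16 of 17 in HCT15. The share of all segments with each RRBS sign was not counted, so that these counts have no baseline. The RRBS ratios used here were not GC-corrected and lean to losses in HCT15. For the leading PC3 segments the RRBS ratios were 2.07 at chr10:75000001-82000000, 1.56 at chr10:62000001-65000000, 1.74 at chr10:33000001-36000000, -1.81 at chr8:1-17000000 and -1.20 at chr8:50000001-62000000. In DU145, chr14:28000001-37000000 had an RRBS ratio of 0.77, chr18:33000001-37000000 1.05 and chr17:15000001-18000000 -0.92. Without GC correction, RRBS called 3.37% of bins gained and 30.9% lost in HCT15, 13.2% and 7.16% in DU145, and 20.1% and 14.9% in PC3. After GC correction, 444 of 525 lost PC3 bins (84.6%) and 357 of 427 gained ones (83.6%) were called by RRBS as well, where RRBS called 20.9% and 17.6% of all bins. In DU145 the shares were 205 of 436 (47.0%) for losses and 116 of 177 (65.5%) for gains, beside 9.27% and 7.24%. In HCT15 they were 102 of 159 (64.2%) and 180 of 267 (67.4%), beside 8.85% and 8.97%.

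**Figure D4:**
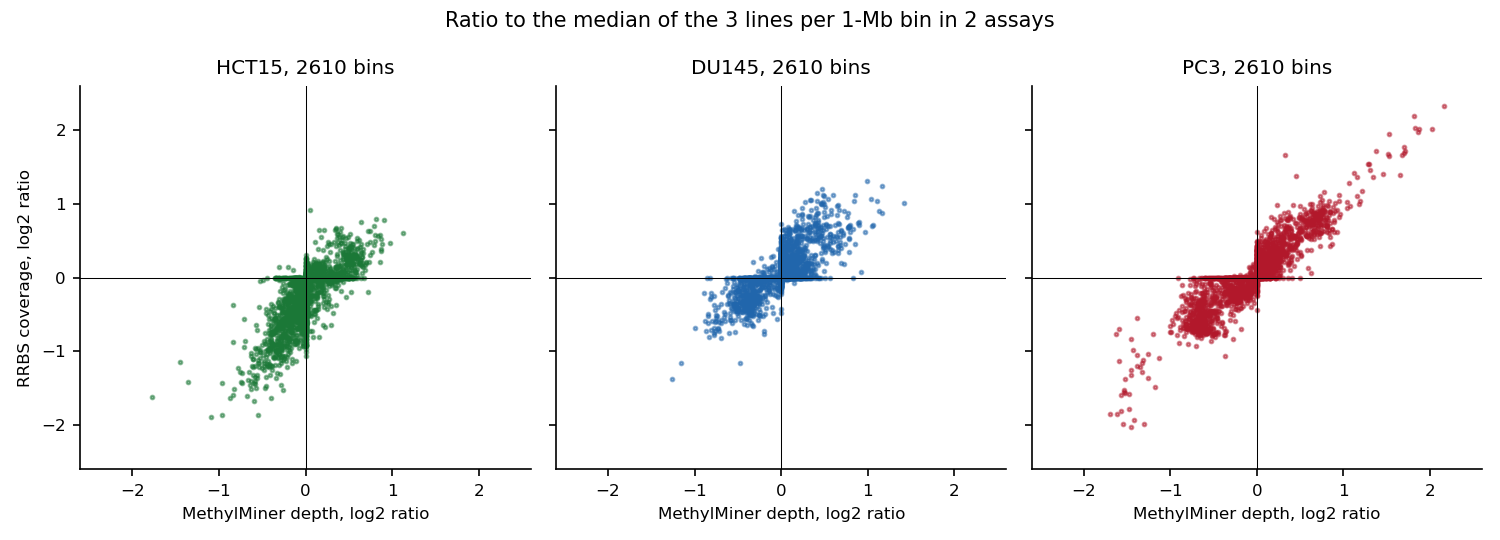
Log2 ratio to the median of the 3 lines by RRBS coverage (vertical axis) against the same ratio by MethylMiner depth (horizontal axis) in 2610 bins of 1 Mb, 1 panel per line, each point a bin. Points on an axis are bins in which the line was the median in that assay. The highest r was that of PC3 (0.95), taken on log2 values centred on the mean of the 3 lines and not on the ratios drawn.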

How the data were processed

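Per the labels and the study's methods, the authors mapped MBD-seq read pairs with Bowtie to hg19 (GRCh37), kept unique pairs within 400 bp, collapsed duplicates and deposited the coverage (signal: depth per stretch, not scaled). For RRBS, the authors deposited read counts at each CpG, total and methylated, for CpGs with 6 reads or more. Gene positions are those of GENCODE release 44 on GRCh37. Depth times length was summed per 1-Mb bin, divided by the total of the library over chromosomes 1 to 22 and set against the median of the 3 lines. GC correction divided by the median of 20 classes of bins of like GC content. Segments were cut by least squares over the 3 profiles together and hold at least 3 bins. A rise of depth was counted as a fragment start. Deleted windows of 50 kb had at most 10% of the median and at least 20 expected starts. Intervals are exact Poisson 95% intervals. With 1 library per line no test was run. Comparisons of RRBS bins left out chromosomes 21 and 22, as PC3 lacks part of them in the file used. The other 3 kits were used only for the deleted runs and are shallow. Scripts (Python 3.11.15 with pandas 2.3.3, scipy 1.17.1 and samtools 1.23.1) were tested on simulated data. Members and gene lists (all of a list of 67 genes, up to 10 genes per deleted run, and for the 3 highest and 3 lowest segments of each line the listed or the 2 longest genes) were chosen with earlier results of these data known. Some listed genes and 1 deleted run are not reported here. The own level, segmentation after GC correction, leaving out windows near centromeres, the exons shown and genes named outside this rule were chosen after seeing the data.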

Additional observations from a re-analysis of the deposited data

How the results depend on the processing

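No paired analysis was possible because each line had 1 library per kit and the labels share no replicate numbers. Of the values for the main comparisons, 93 stayed close to the reported value under an alternative (for a count, within 1.5 times) and 73 did not. Of those for single genes and lists, 194 stayed close, 132 moved and 3 turned direction. The cause was not tested.

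For bins called gained and lost, with scaling by the median bin, HCT15 had 193 gained and 414 lost and PC3 500 gained. With a lower threshold HCT15 had 395 lost and DU145 333 gained, and with a threshold of 1.4-fold HCT15 had 151 gained and 66 lost and DU145 103 and 115. Against the mean of the other 2 lines, HCT15 had 598 gained and 491 lost, DU145 528 and 630, and PC3 854 lost. Against HCT15, DU145 had 439 gained and 700 lost and PC3 557 and 897. By RRBS, HCT15 had 88 gained and 807 lost, DU145 345 and 187, and PC3 525 gained. By MethylCap, HCT15 had 176 gained and 566 lost and DU145 516 and 205. On the own level, chosen after seeing the data, the numbers were 26 and 135 in HCT15, 366 and 793 in DU145, and 652 and 909 in PC3.

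For chromosome arms, PC3 had 4 gained after GC correction. Against HCT15, DU145 had 4 gained and 10 lost and PC3 5 gained. With scaling by the median bin, HCT15 had 0 gained and 5 lost, DU145 2 and 3, and PC3 4 and 5. By RRBS, HCT15 had 1 gained, DU145 2 lost and PC3 3 gained. By MethylCap, HCT15 had 2 gained, DU145 1 lost and PC3 2 gained. On the own level, HCT15 had 0 gained and 0 lost, DU145 4 and 13, and PC3 9 and 15.

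Deleted windows covered 50 kb in DU145 and 1075 kb in PC3 with windows of 25 kb, and 100 kb each in HCT15 and DU145 with windows of 100 kb. They covered 950 kb in HCT15, 350 kb in DU145 and 2950 kb in PC3 at 20% of the median, and 200 kb in HCT15 at 5%. Without windows within 5 Mb of a centromere gap, also chosen after seeing the data, HCT15 kept 200 kb.

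Of the listed genes, HCT15 had 0 gained and 1 lost on the own level, 0 lost after GC correction and 7 lost with scaling by the median bin. DU145 had 11 lost after GC correction, 19 lost against HCT15 and 21 lost on the own level, and PC3 had 27 lost against HCT15 and 23 lost on the own level. Direction turned on the own level for LRP1B in PC3 (-0.0775) and for TERT (0.0752) and RICTOR (0.0532) in HCT15.

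Depth limits the deletions most in PC3, where 42117 windows of 50 kb had enough expected fragments, against 53230 in HCT15. Without a replicate library, a difference between lines in MethylMiner depth alone cannot be told apart from a difference between libraries.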
